A study of Mus musculus with 8 samples.

Results

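Gene expression in uninjured kidney was compared between Keap1 knockdown (KD) and wild-type (WT) mice, across all genes measured. The comparison rests on 4 of the 8 arrays of the series, chosen by their titles: 2 of KD normal kidneys and 2 of WT normal kidneys. A gene was a member when each array of KD normal, or each array of WT normal, showed its probe well above background, which held for 19136 of the 20580 genes fitted. Of the members, 18037 were well above background in both groups, 727 in KD only and 372 in WT only. A gene symbol was known for 13391 members, and the rest are array identifiers, several of which can belong to 1 gene.

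All samples came from male mice of 16 weeks. The normal kidneys are left kidneys taken without ischemia. The remaining arrays, WT IRI and KD IRI, hold left kidneys with ischemia-reperfusion injury (IRI), taken at day 1 after a clamp of 45 min on the left renal vessels. They entered the fit to share its estimate of the spread and served as a second setting for the knockdown. The labels name the altered genotype only as a Keap1 knockdown, with no strain, allele, promoter or target cell. They give 2 samples per group and do not say that each is a separate animal, so p-values measure only how much these samples vary, which may be technical. An exact permutation test of 2 arrays against 2 cannot give a p below 0.333, and single genes are therefore reported with the adjusted p of the limma fit, which borrows the spread from all genes.

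KEAP1 is the substrate adaptor of a cullin 3 ubiquitin ligase that binds the transcription factor NRF2 (gene Nfe2l2) and directs it to the proteasome. When KEAP1 is scarce or its cysteines are modified by electrophiles, NRF2 accumulates, pairs with a small MAF protein and binds antioxidant response elements. Known targets make and use glutathione and thioredoxin, supply NADPH, reduce quinones and carbonyls, conjugate and export xenobiotics, and handle heme and iron. In the kidney these enzymes are best known from the proximal tubule, which takes up and clears many reactive compounds.

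Each array received material from 300 ng of total RNA labelled with Cy3. On the 4 arrays compared, 62.1% to 64.5% of the non-control spots were well above background, and none was saturated. Levels are the log2 of the processed signal minus the log2 of the array's 75th percentile, so 1 unit is a 2-fold step; levels of different genes come from different probes and were not compared. Differences are KD minus WT on this log2 scale, with limma's standard error (SE) and n = 2 arrays per group. The WT arrays correlated with r = 0.9952 and the KD arrays with r = 0.9909 across genes, which are not independent replicates, and 261 members differed by over 2-fold between the WT arrays against 515 between the KD arrays. Arrays numbered 1 shared a slide, as did arrays numbered 2, and each slide held all groups. Kidney identity was checked with Umod (uromodulin of the thick ascending limb), which read 8.08 and 8.10 in WT and 7.79 and 7.89 in KD, and with Lrp2 (megalin of the proximal tubule), which read 7.20 and 7.16 in WT and 7.25 and 7.20 in KD.

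Keap1 itself read 2.76 and 2.69 on the WT arrays and 1.51 and 1.40 on the KD arrays. The groups did not overlap, and the KD level was 2.42-fold lower, a difference of -1.27 (SE 0.12, adjusted p = 0.00383). The single Keap1 probe kept this call under every alternative tried, and its position relative to any altered part of the gene is not known here. Of 18 regulators of the KEAP1-NRF2 system that were members, 4 rose (22.2%, against 6.16% of all members) and 1, Keap1, fell. Maff, a small MAF partner of NRF2, rose most, from -1.35 and -0.96 to 0.50 and 1.42 (difference 2.11, SE 0.32, adjusted p = 0.0108). Sqstm1 (p62, which binds KEAP1 and carries it to autophagosomes) rose by 0.72 from 6.10 and 6.08 to 6.76 and 6.85, and Syvn1, a ubiquitin ligase of the endoplasmic reticulum, by 0.77. Nfe2l2 mRNA was at 3.20 and 3.23 in WT and 2.84 and 3.19 in KD, a difference of -0.20 (SE 0.11) that did not pass the test (adjusted p = 0.282); NRF2 protein was not measured. Cul3, the ligase's scaffold (0.26), and Bach1, which competes with NRF2 for its sites (0.44), did not pass it either; with the replicate block Bach1 passed (adjusted p = 0.0432) and 6 regulators rose. Without WT array 1 or WT array 2, none of the 4 rises among the regulators passed.

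Genes beside Keap1 on chromosome 9 were read as its surroundings. Of the 25 protein-coding genes on each side, 44 were members, and 10 of them (22.7%) passed the test, 3 higher and 7 lower, against 15.8% of all members. Their median difference was -0.11, with a range from -1.02 to 0.67, and none fell as far as Keap1. Col5a3, a collagen chain gene, was the largest fall that passed, from -1.74 and -1.55 to -2.50 and -2.37, and Ppan, a ribosome biogenesis factor, the largest rise, from 1.60 and 1.69 to 2.54 and 2.10. The nearest measured genes, Pde4a on one side and Atg4d on the other, differed by -0.33 and -0.08 and did not pass. The 10 calls became 6 without KD array 1 or KD array 2, 5 without either KD IRI array and 0 without either WT array.

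**Figure D1:**
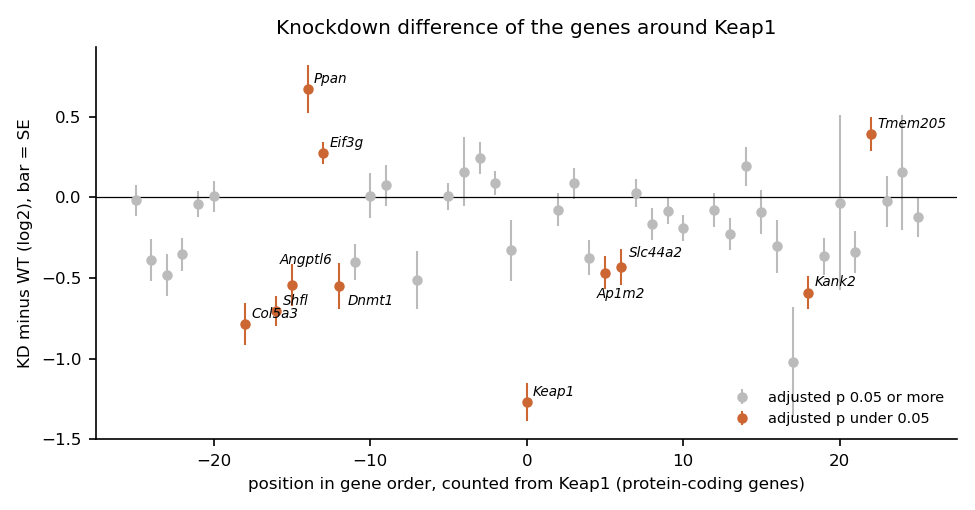
Difference between KD and WT in uninjured kidney (log2, bars are the SE of the fit) for member genes in gene order around Keap1, with Keap1 at position 0; orange marks an adjusted p under 0.05. Keap1 lies lowest at -1.27, and 10 of its 44 measured neighbours are orange, 3 above and 7 below 0.

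Over the whole set, 3029 of 19136 members passed the threshold of 0.05, 15.8% of them; 1179 rose (6.16%) and 1850 fell (9.67%). At least a 2-fold change was reached by 817, of which 307 rose and 510 fell, and the median difference of all members was -0.03. Among the 18037 members measured in both groups 15.4% passed (6.04% higher, 9.39% lower), and among all 20580 genes fitted 15.1% (5.8% higher, 9.33% lower). At an unadjusted p under 0.05 there were 6491. All 3029 had the same sign on both slides, but the calls were made from these same arrays, so this is no separate support. Across all members the difference on slide 1 correlated with that on slide 2 with r = 0.669, a description across genes whose slides shared no array. Arrays of the groups were apart for 12587 members (65.8%), so a gap between 2 and 2 arrays is common here and is given below only beside the test. The count of calls depended on single arrays: it was 279 without WT array 1, 114 without WT array 2, 1469 without KD array 2, 1922 without KD IRI array 1 and 1920 without KD IRI array 2.

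**Figure D2:**
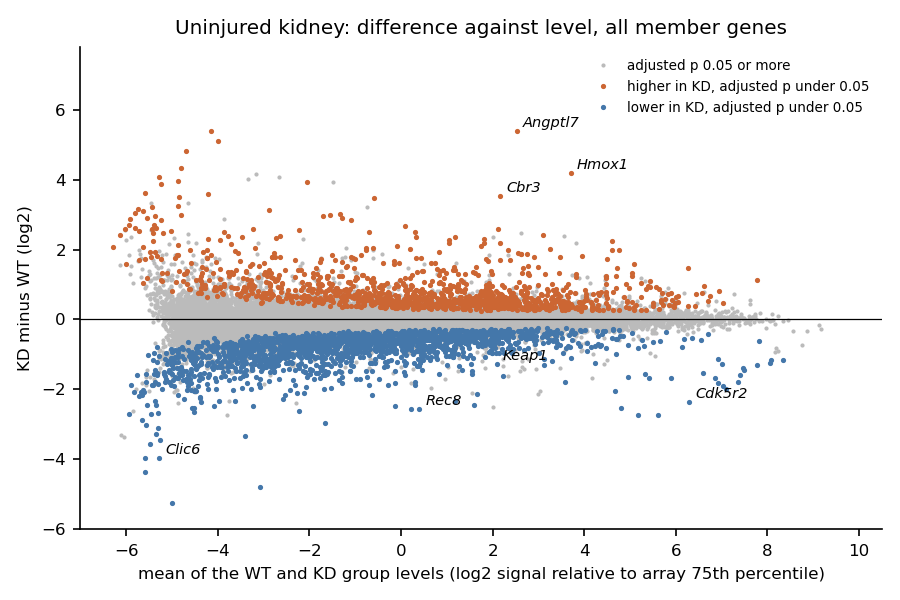
Difference between KD and WT (log2) against the mean level of the groups (log2 signal relative to the array's 75th percentile) for the 19136 members; orange and blue mark the 1179 rises and 1850 falls. Falls extend to bright probes at the right, and Hmox1, Cbr3 and Angptl7 stand highest among genes with a level above 2.

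Promoters of genes that rose were searched for the core of the antioxidant response element, TGACNNNGC, on either strand, in the window from 250 bases before to 50 after the start that RefSeq gives on GRCm38.p6. The core was found in 18.2% of members that rose (133 of 730 with a promoter), in 14.0% of those that fell (153 of 1089), in 16.9% of those not called and in 14.0% of all 27025 genes in the table. Among the detoxification lists described next, it stood in 13 of the 37 genes that rose (35.1%) and in 11 of the 108 that did not pass (10.2%). These shares are descriptions with no test, and a match shows the letters only, not binding. For Hmox1, Cbr3, Gclc, Akr1b8, Srxn1 and Nqo1, which also rose, no core was found in the 250 bases before the start. The following stretches show the core, in capitals, in genes of the glutathione, thioredoxin, NADPH, glucuronate and reductase systems and in Maff, all of which rose; GCNNNGTCA is the core read from the other strand. They lie at chr3:122245397-122245457 (plus strand) for Gclm, chr10:82859088-82859148 (plus) for Txnrd1, chr4:116685440-116685500 (plus) for Prdx1, chrX:74428903-74428963 (minus) for G6pdx, chr5:65435940-65436000 (minus) for Ugdh, chr7:49759437-49759497 (plus) for Htatip2 and chr15:79346483-79346543 (plus) for Maff.
Gclm: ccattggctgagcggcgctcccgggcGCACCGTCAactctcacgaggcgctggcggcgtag
Txnrd1: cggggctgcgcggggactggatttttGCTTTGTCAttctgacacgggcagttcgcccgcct
Prdx1: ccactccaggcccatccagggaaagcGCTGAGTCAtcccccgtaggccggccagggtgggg
G6pdx: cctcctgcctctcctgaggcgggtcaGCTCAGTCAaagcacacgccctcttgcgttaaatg
Ugdh: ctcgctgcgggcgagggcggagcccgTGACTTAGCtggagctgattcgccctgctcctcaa
Htatip2: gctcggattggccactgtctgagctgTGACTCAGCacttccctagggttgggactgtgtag
Maff: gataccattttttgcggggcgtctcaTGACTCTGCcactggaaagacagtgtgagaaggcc

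Of 18 heme and iron genes that were members, 3 rose (16.7%, against 6.16% of all members) and none fell. Hmox1 (heme oxygenase 1, which opens heme to biliverdin, iron and carbon monoxide) read 1.58 and 1.63 in WT and 6.04 and 5.55 in KD, the largest rise of the detoxification genes that were above background in both groups, at 18.2-fold (difference 4.19, SE 0.16, adjusted p = 0.000751). Slc40a1 (ferroportin, the iron exporter) rose by 0.86 from 1.57 and 1.43 to 2.50 and 2.21, and Ncoa4, which delivers ferritin to lysosomes, by 0.82. The ferritin genes did not pass: Fth1 differed by 0.09 and Ftl1 by 0.10. Alas1, the first enzyme of heme synthesis, differed by 1.04 with KD arrays at 5.29 and 4.01 and did not pass (adjusted p = 0.126). Without WT array 1 or WT array 2, 1 of the 3 rises passed.

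Of 16 genes of glutathione synthesis and turnover, 5 rose (31.2%, against 6.16% of all members) and 1 fell (6.25%, against 9.67%). Gclc, the catalytic subunit of the rate-limiting glutamate-cysteine ligase, rose 3.99-fold from 3.68 and 3.82 to 5.81 and 5.69 (difference 2.00, SE 0.10, adjusted p = 0.000985). Gclm, its modifier subunit, rose 1.53-fold from 1.11 and 1.21 to 1.82 and 1.73 (difference 0.61, SE 0.13, adjusted p = 0.025). Whether the rises of the pair differ was not tested. Gss (glutathione synthetase) rose by 0.52, Lap3 (leucine aminopeptidase) by 0.49 and Gsr (glutathione reductase) by 0.40. Dpep1, a dipeptidase that splits cysteinyl-glycine, fell by 0.54 from 3.79 and 3.79 to 3.31 and 3.20. Chac1, a glutathione-degrading enzyme, read -2.47 and -2.59 in WT and -1.66 and -0.53 in KD and did not pass. The 5 rises became 1 without WT array 1, WT array 2 or KD array 2 and 2 without KD array 1, while Gclc passed in each of these fits.

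Glutathione S-transferases, which couple glutathione to electrophiles, were the detoxification list with the largest share of rises: 10 of 22 members rose (45.5%, against 6.16% of all members) and 2 fell, with a median difference of 0.38 against -0.03 over all members. Gstm3 rose 2.78-fold, from 5.43 and 5.61 to 7.02 and 6.98 (difference 1.48, SE 0.11, adjusted p = 0.00238). Gsta4, whose preferred substrate is the lipid aldehyde 4-hydroxynonenal, rose from -0.39 on both WT arrays to 0.86 and 0.89 (difference 1.27, SE 0.09, adjusted p = 0.00238). Other alpha and mu class members rose as well, Gsta1 by 1.24, Gsta2 by 1.24, Gsta3 by 1.05, Gstm1 by 1.13 and Gstm2 by 0.40. These classes are runs of near-identical genes, so the values of Gsta1 and Gsta2, and of the mu genes, may share signal between probes. Gstp1 of the pi class rose by 0.97, and the membrane-bound Mgst1 and Mgst2 by 0.84 and 0.57. The 2 falls (9.09%, against 9.67% of all members) were Gsto2 (omega), from -1.70 and -1.60 to -2.65 and -2.83, and Gstt1 (theta), by 0.46. Over the alternatives the Gsto2 difference shrank to -0.64, and neither fall kept its call in all of them. In this list 6 rises passed without WT array 1 and 4 without WT array 2.

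Of 32 peroxidase and thioredoxin genes, 8 rose and 2 fell, with a median difference of 0.08. Gpx2, a glutathione peroxidase best known from the gut epithelium, rose 3.76-fold from -3.67 and -3.77 to -2.13 and -1.49 (difference 1.91, SE 0.25, adjusted p = 0.00806). Srxn1 (sulfiredoxin, which repairs over-oxidised peroxiredoxins) rose from 2.94 and 3.13 to 4.64 and 5.10 (difference 1.83, SE 0.17, adjusted p = 0.00383), and its 2 other probes differed by 2.22 and 2.12. Txnrd1, the cytosolic thioredoxin reductase, rose by 1.01, from 3.92 and 4.02 to 4.88 and 5.07. Smaller rises were seen in Cat (catalase, 0.70), Msrb1 (a methionine sulfoxide reductase, 0.75), Prdx1 (0.37), Prdx6 (0.33) and Txn1 (thioredoxin, 0.35). The falls were Txnrd3 (-0.64), a reductase best known from testis, and Gpx7 (-0.57). Txnip, the thioredoxin-binding inhibitor, differed by -0.88 with KD arrays at 2.59 and 3.70 and did not pass (adjusted p = 0.126). The 8 rises became 2 without WT array 1 or WT array 2 and 3 without KD array 2.

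NADPH, which thioredoxin and glutathione reductases use, is made chiefly by the pentose phosphate pathway and by cytosolic dehydrogenases. Of 19 such genes, 6 rose (31.6%, against 6.16% of all members) and none fell, with a median difference of 0.31. Idh1 (cytosolic isocitrate dehydrogenase) rose from 0.87 and 1.07 to 1.84 and 1.84, a difference of 0.87 (SE 0.13, adjusted p = 0.0107). Pgd, the second NADPH-yielding step of the pathway, rose from 3.29 on both WT arrays to 4.14 and 4.04 (difference 0.80, SE 0.10, adjusted p = 0.00774), and G6pdx, the first step, from 1.82 and 1.87 to 2.50 and 2.62 (difference 0.71, SE 0.10, adjusted p = 0.0089). G6pd2, a retrocopy of G6pdx, was not well above background on either WT array and was at least 1.87-fold higher in KD, a value that may hold signal of G6pdx. Over the alternatives the G6pd2 difference shrank to 0.82, so its bound holds for the main processing only. Tkt (transketolase) rose by 0.46 and Aldh1l1 by 0.47, whereas Me1 (malic enzyme, 0.31) and Taldo1 (transaldolase, 0.11) did not pass. No rise of this list passed without WT array 1 or WT array 2, and 4 did without KD array 2.

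Of 25 quinone, carbonyl and aldo-keto reductases, 6 rose (24.0%, against 6.16% of all members) and 1 fell (4.0%, against 9.67%). Cbr3 (carbonyl reductase 3) rose 11.6-fold, from 0.41 and 0.39 to 4.09 and 3.77 (difference 3.53, SE 0.16, adjusted p = 0.000853). Akr1b8, an aldo-keto reductase of reactive aldehydes, rose 5.30-fold from 1.91 and 1.88 to 4.01 and 4.59. Nqo1, the quinone reductase, rose 2.50-fold from 1.91 and 2.06 to 3.31 and 3.30 (difference 1.32, SE 0.12, adjusted p = 0.00364). Akr1b3, the aldose reductase that makes sorbitol, rose by 1.02, Htatip2 by 0.69 and Akr1c19 by 0.66. Akr1e1 went the other way, from 1.19 and 1.30 to -0.11 and -1.14 (difference -1.88, SE 0.33, adjusted p = 0.015). In this list 5 rises passed without WT array 1 and 3 without WT array 2.

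Of 17 aldehyde dehydrogenases, 3 rose (17.6%, against 6.16% of all members) and 2 fell (11.8%, against 9.67%). Aldh1a7 rose from 0.87 and 1.24 to 3.54 and 2.96, and Aldh1a1, a retinaldehyde dehydrogenase with near-identical sequence, from -0.07 and -0.03 to 2.96 and 1.30, both by 2.19, so their probes may share signal. Aldh1b1, a mitochondrial member, fell by 0.87. After normexp correction its difference was -0.46 and did not pass limma's test (adjusted p = 0.604), and 0 genes of this list fell. Of 19 glucuronidation and sulfation genes, 4 rose (21.1%, against 6.16% of all members) and none fell. Ugt2b35, a glucuronosyltransferase, was not well above background on either WT array and was at least 5.38-fold higher in KD, where it read -2.80 and -2.50. It did not pass limma's test after normexp correction (adjusted p = 0.0765). Over the alternatives the Ugt2b35 difference shrank to 1.94, so its bound holds for the main processing only. Ugdh, which makes the UDP-glucuronate these enzymes need, rose by 1.02 from 3.20 and 3.08 to 4.14 and 4.18, Sult1d1 by 0.92 and Ugt1a6b by 0.68. Of 12 ABC efflux pumps, 3 rose and none fell: Abcc4, which exports conjugates into the urine, from 1.24 and 1.35 to 3.07 and 2.93 (difference 1.71, SE 0.11, adjusted p = 0.00143), Abcc3 by 1.01 and the cholesterol exporter Abcg1 by 0.76. Without WT array 1 and without WT array 2, 0 and 0 aldehyde dehydrogenases, 2 and 1 conjugation genes, and 1 and 1 efflux pumps passed as higher; without either KD array 2 conjugation genes did, and without either KD IRI array 1 aldehyde dehydrogenase did.

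**Figure D3:**
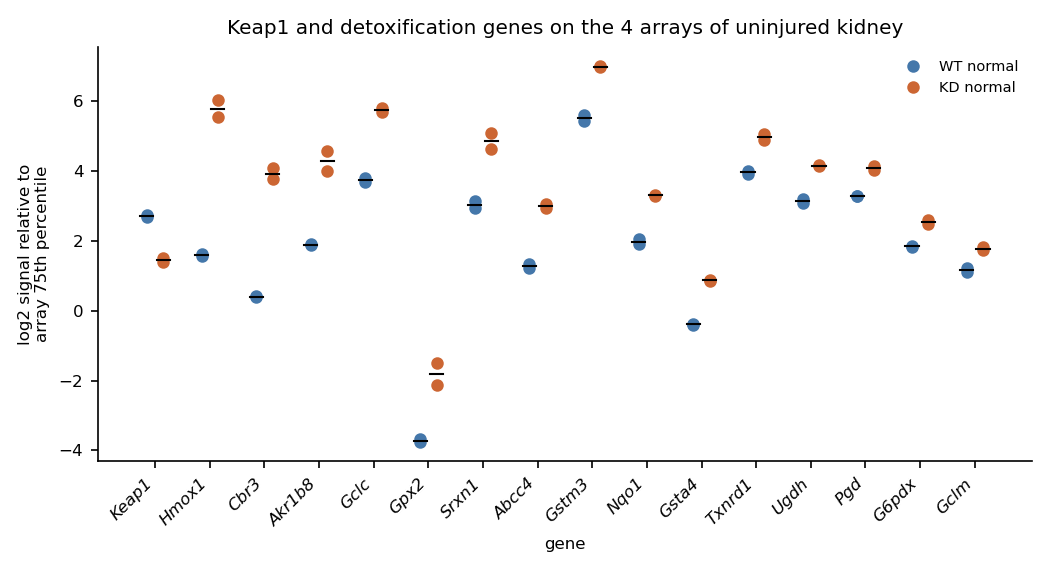
Level on each of the 4 arrays (points, log2 signal relative to the array's 75th percentile) and group mean (line) for Keap1 and 15 detoxification genes in WT normal (blue) and KD normal (orange). Keap1 is lower on both KD arrays and the other genes shown are higher on both; heights of different genes are not comparable.

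Heat-shock proteins, which refold damaged proteins, rose in 14 of 25 members (56.0%, against 6.16% of all members), and none fell, with a median difference of 0.77. Hspb1 (HSP27) rose from 0.70 and 0.72 to 3.35 and 2.45 (difference 2.19, SE 0.27, adjusted p = 0.00695), Hspa4l, a nucleotide exchange factor, from 0.17 and 0.15 to 1.60 and 1.51 (difference 1.39, SE 0.12, adjusted p = 0.00364), and Hspb8 from -1.88 and -2.10 to -0.72 and -0.74 (difference 1.26, SE 0.16, adjusted p = 0.00724). The KD arrays disagreed on the inducible HSP70 genes. Hspa1a read 2.69 and 2.77 in WT but 6.73 and 3.10 in KD, and Hspa1b 0.68 and 0.99 in WT but 4.95 and 1.43 in KD, so neither passed, and their probes may share signal. The constitutive Hspa8 differed by 0.14 and did not pass. The 14 rises became 2 without WT array 1 and 1 without WT array 2, and the list's median was 0.52 without KD array 1 and 1.03 without KD array 2.

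Of 29 genes of the unfolded protein response and its ATF4 arm, 11 rose (37.9%, against 6.16% of all members) and none fell, with a median difference of 0.51. Creld2, secreted under stress of the endoplasmic reticulum, rose from 4.10 and 3.88 to 5.48 and 5.44 (difference 1.47, SE 0.14, adjusted p = 0.00383). Sdf2l1 rose by 1.27, Manf by 0.97 and Hspa5 (BiP, the reticulum's main chaperone) by 0.88, from 5.29 and 5.09 to 6.16 and 5.98. Ddit4, an inhibitor of mTORC1 signalling, rose 4.73-fold from 3.44 and 3.53 to 5.07 and 6.39. These 11 became 1 without either WT array, 4 without KD array 1 and 5 without KD array 2 or either KD IRI array. Of 26 immediate-early genes, 12 rose (46.2%, against 6.16% of all members) and none fell: Egr2 from -4.50 and -4.39 to -1.41 and -1.22 (difference 3.13, SE 0.27, adjusted p = 0.00345), the orphan receptor Nr4a1 by 1.73 and Egr1 by 1.08. Fos was not well above background on either WT array and was at least 1.49-fold higher in KD, and Jun did not pass (0.31). The 12 became 2 without WT array 1, 1 without WT array 2 and 7 without KD array 2.

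Of 30 genes that rise in injured tubules, 10 rose without any injury (33.3%, against 6.16% of all members) and none fell, with a median difference of 0.74. Krt19 (a keratin) rose from -1.24 on both WT arrays to 1.19 and 1.66 (difference 2.66, SE 0.27, adjusted p = 0.00459), Krt18 by 1.23 and Tnfrsf12a (the TWEAK receptor) from 1.64 and 1.73 to 3.45 and 3.68 (difference 1.88, SE 0.11, adjusted p = 0.00102). Plaur (urokinase receptor) rose by 1.76. The best known urinary injury markers did not pass: Havcr1 (KIM-1) read -3.70 and -4.70 in WT and -2.94 and -3.50 in KD, and Lcn2 (NGAL) -4.26 and -3.96 in WT and -4.21 and -2.88 in KD. The groups did not overlap for Havcr1 (adjusted p = 0.115) and overlapped for Lcn2 (adjusted p = 0.499). Among 21 genes of p53 and its targets, 3 rose (14.3%, against 6.16% of all members) and none fell: Cdkn1a (p21) from -3.02 and -2.47 to -0.51 and 0.84 (difference 2.91, SE 0.46, adjusted p = 0.0115), the stress cytokine Gdf15 from 0.63 and 0.76 to 2.91 and 2.67 (difference 2.09, SE 0.14, adjusted p = 0.00164) and the kinase Plk3 by 1.94. The injury rises became 4 without WT array 1 and 3 without WT array 2, and the p53 rises 1 without either WT array and 2 without KD array 2.

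**Figure D4:**
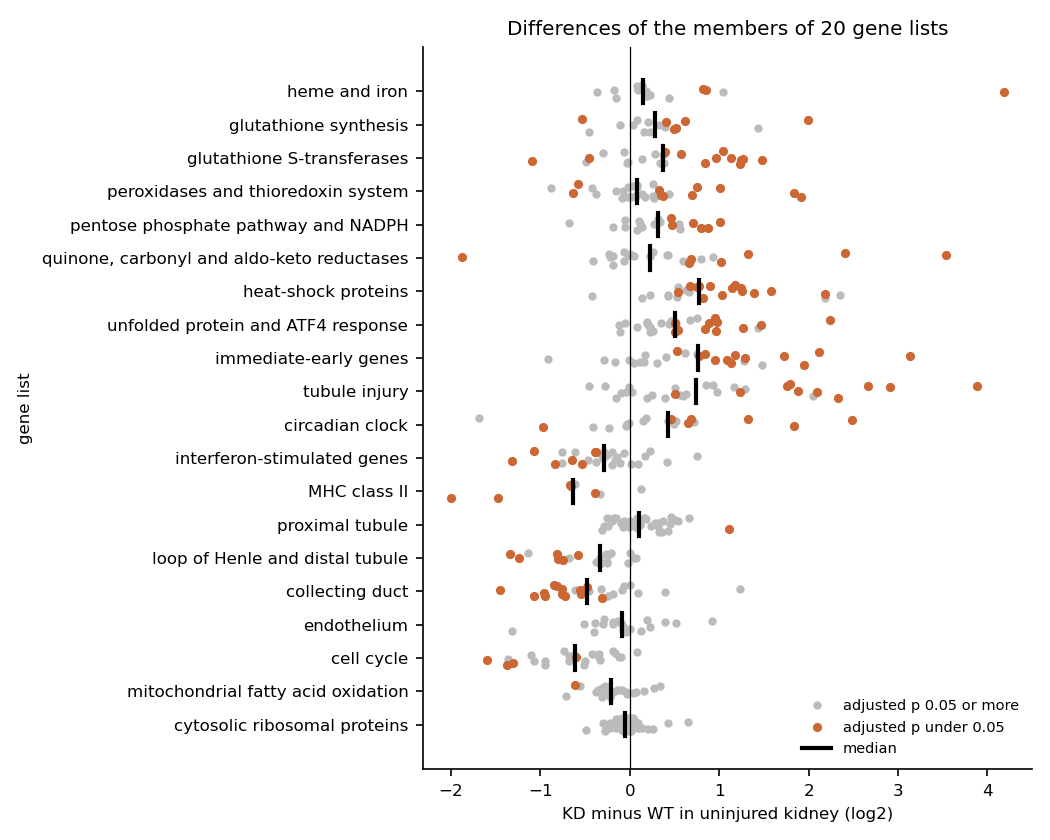
Difference between KD and WT in uninjured kidney (log2) for each member of 20 gene lists; orange points have an adjusted p under 0.05 and black bars are medians. Detoxification and stress lists reach to the right, the interferon, MHC class II, distal tubule and collecting duct lists to the left, and the ribosomal list has no orange point.

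Of 19 circadian clock genes, 6 rose (31.6%, against 6.16% of all members) and 1 fell (5.26%, against 9.67%). Arntl (BMAL1, the positive limb) rose from -2.83 and -2.01 to -0.69 and -0.47 (difference 1.84, SE 0.26, adjusted p = 0.00896), Nfil3 (E4BP4, a repressor of D-box genes) from -1.14 and -0.75 to 1.25 and 1.83 (difference 2.49, SE 0.24, adjusted p = 0.0041), Clock by 0.47 and Rora by 0.68. Nr1d1 (REV-ERBalpha, which represses Arntl and Nfil3) fell from -0.03 and 0.11 to -0.58 and -1.28 (difference -0.97, SE 0.22, adjusted p = 0.032), and Dbp, an output gene in opposite phase to Arntl, read 5.14 and 4.88 in WT and 4.17 and 2.48 in KD without passing (adjusted p = 0.0592). The labels used here do not give the time of day at which the kidneys were taken. Genes that respond to glucocorticoid, a list drawn up after these values had been seen, held 9 members. Of these 5 rose (55.6%, against 6.16% of all members) and none fell. Fkbp5 rose from 0.14 and -0.15 to 1.93 and 2.80, and Tsc22d3 (GILZ) from 1.74 and 1.46 to 3.04 and 3.96. Map3k6, Cebpd and Ddit4 were the other rises, while Sgk1, Klf9 and Per1 did not pass. In Fkbp5, Tsc22d3, Map3k6, Cebpd and Ddit4 KD array 2 read higher than KD array 1, and no rise of this list passed without KD array 2, without either WT array or without either KD IRI array. Cirbp, a cold-inducible RNA-binding protein, fell 5.48-fold from 2.79 and 2.87 to 0.42 and 0.33 (difference -2.45, SE 0.22, adjusted p = 0.00383), a call kept under every alternative, while Rbm3, its relative, read 3.42 and 3.29 in WT and 3.05 and 1.97 in KD and did not pass. Of the clock rises, 2 passed without either WT array and 4 without KD array 2, and the Nr1d1 fall was lost without either WT array, KD array 2 or either KD IRI array.

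Among genes with a symbol, the largest rise was Angptl7, an angiopoietin-like secreted protein, from 0.13 and -0.47 to 4.45 and 6.01, or 42.2-fold (difference 5.40, SE 0.57, adjusted p = 0.00498). Among the 20 largest rises, 12 were not well above background on either WT array, so that their folds are bounds: Alkal2, a ligand of the ALK receptor, was at least 12.5-fold higher in KD and Grem1, an antagonist of bone morphogenetic proteins, at least 6.98-fold. Rbp7, a retinoid-binding protein, rose 15.2-fold from -3.52 and -4.50 to -0.64 and 0.47 (difference 3.92, SE 0.42, adjusted p = 0.005), and its other probe differed by 3.62. Sprr2f, a cornified-envelope protein of the injury list, was at least 3.44-fold higher, Sh2d1a, an adaptor of lymphocytes, at least 3.58-fold, and Gp1ba, a platelet receptor chain, at least 3.93-fold. Over the alternatives the log2 differences shrank to 2.76 for Alkal2, 2.41 for Grem1, 1.77 for Sprr2f, 1.72 for Sh2d1a and 1.55 for Gp1ba. The bounds given for these genes thus hold for the main processing only, and the Sprr2f call did not hold in all alternatives. Zfp982 rose by 2.95 by its brighter probe, whereas its second probe differed by -0.27 and did not pass. Alkal2 and Grem1 did not pass without either WT array, nor Alkal2 without KD array 2 and Grem1 without KD array 1. Angptl7 did not pass without WT array 2 (adjusted p = 0.0522) or in the deposited log2 table (adjusted p = 0.768), although its difference there was 5.41. Gp1ba, Grem1 and Sh2d1a did not pass after normexp correction or in that table, nor Gp1ba without WT array 1 and Zfp982 without WT array 2.

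Among the large falls, Clic6, a chloride channel relative, was not well above background in KD and at least 4.56-fold lower, and the crystallin gene Crygc at least 3.34-fold. Another crystallin, Cryga, was measured in both groups and fell by 2.33. Crystallin gamma genes are near-identical, so their probes may share signal. Over the alternatives the differences shrank to -0.72 for Clic6, -0.43 for Crygc and -0.95 for Cryga, and none of these calls held in all of them. The bounds given for Clic6 and Crygc thus hold for the main processing only. Rec8, a cohesin subunit of meiosis, fell from 1.51 and 1.85 to -0.83 and -0.94 (difference -2.57, SE 0.14, adjusted p = 0.000985), and its second probe by 1.61. Cyp26b1, which degrades retinoic acid, fell from 1.37 and 1.64 to -0.67 and -1.44 (difference -2.56, SE 0.36, adjusted p = 0.00879). Lrrc66 fell from 2.30 and 2.37 to 0.03 and -0.03 (difference -2.34, SE 0.12, adjusted p = 0.000985). Of the 20 largest falls, 9 were not well above background on either KD array. Cyp26b1 did not pass without WT array 1 or without WT array 2.

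Bright probes among the falls shared a pattern over the arrays, noticed after the values had been seen. Of 2440 members whose mean level exceeded 3, 30 fell by at least 2-fold, and in 27 of these the arrays stood in the order WT array 2, WT array 1, KD array 1, KD array 2, an order found in 31.9% of all members that fell. In 23 of them the WT arrays and the KD arrays each also differed by more than 0.4, as in 1.57% of all that fell. Synpo (synaptopodin of podocytes) read 6.42 and 7.53 in WT and 4.85 and 3.65 in KD, Cdk5r2, a neuronal activator of CDK5, 6.93 and 8.01 against 5.68 and 4.50, and Tagln (a smooth muscle protein) 5.86 and 6.35 against 4.84 and 4.26. The second, dimmer Synpo probe rose, from 0.82 and 0.84 to 1.30 and 1.41. Tagln also has 2 probes, and its fall is that of the brighter one only. Over the alternatives the Tagln difference shrank to -0.27 and its call did not always hold. The dimmer Tagln probe is not reported here. What this shared order comes from was not tested.

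Several antigen presentation genes fell. Of 8 MHC class II genes that were members, 5 fell (62.5%, against 9.67% of all members) and none rose: H2-Oa from -3.04 and -3.02 to -5.04 and -5.03 (4.01-fold lower, SE 0.22 on the log2 scale, adjusted p = 0.00532), Ciita, the class II transactivator, from -0.41 and -0.37 to -1.51 and -2.21 (difference -1.47, SE 0.25, adjusted p = 0.0139), H2-Ab1 from 4.17 and 4.20 to 3.52 and 3.53, H2-DMb1 by 0.67 and Cd74, the invariant chain, by 0.39. H2-Oa, dim in KD, differed by -0.58 after normexp correction and did not pass there (adjusted p = 0.904) or without WT array 2 (adjusted p = 0.0546). The inducible subunits of the immunoproteasome, which trim peptides for class I, fell too: Psmb9 from 1.10 and 1.00 to -0.09 and -0.45 (difference -1.32, SE 0.19, adjusted p = 0.00972), Psmb8 by 0.84 and Psmb10 by 0.62, with the activator subunit Psme1 by 0.40. Of 28 interferon-stimulated genes, which include Psmb8 and Psmb9, 7 fell, a larger share than the 9.67% of all members, and none rose. Among the falls were Iigp1 (-1.07) and Gbp2 (-0.64). The list had a median of -0.29, with 21 genes lower on both slides. Without WT array 1, without WT array 2, without either KD array, 1, 0 and 3 class II genes passed as lower; for interferon-stimulated genes the counts were 0 without either WT array, 2 without KD array 2 and 3 without either KD IRI array.

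Few blood cell markers passed the test. Of the monocyte and macrophage markers 5.0% rose and 5.0% fell, against 6.16% and 9.67% of all members. Of the lymphocyte markers 16.7% fell and none rose. Among 20 monocyte and macrophage markers, Aif1 (IBA1) fell from -0.10 and -0.16 to -1.61 and -2.07 (difference -1.71, SE 0.24, adjusted p = 0.00894) and Chil3 rose by 2.58, and the summed signal of the list was 70.1 to 74.4 times the array's 75th percentile in WT and 76.6 to 76.8 times in KD. Among 12 lymphocyte markers Cd79b, a B cell receptor chain, fell by 1.70 and Cd8a by 1.64, and the summed signal was 1.35 to 1.50 in WT and 0.98 to 1.15 in KD. The neutrophil list had 5 members of 15, none past limma's test and 3 with an unadjusted p under 0.05. After normexp correction 3 neutrophil genes passed as higher, and with the replicate block 1 did. S100a9 read -2.41 and -2.29 in WT and -0.67 and 2.42 in KD (adjusted p = 0.0516), and the list's summed signal was 0.93 to 1.08 in WT, 1.79 on KD array 1 and 7.84 on KD array 2. The neutrophil attractant Cxcl1 rose by 2.49 and the monocyte attractant Ccl2 by 0.84. They were the 2 calls among 15 inflammation genes (13.3% higher, against 6.16% of all members). Red cell markers summed to 79.9 and 236 in WT and 112 and 90.0 in KD, and WT array 2 thus held the most. In whole kidney, fewer cells of a type and less RNA per cell cannot be told apart, and the part of these cells in the results above was not tested. Without either WT array none of the calls of Aif1, Chil3, Cd79b, Cd8a, Cxcl1 and Ccl2 was made, and without KD array 2 only that of Aif1 was. Chil3, Cd8a and Ccl2 also did not pass without either KD IRI array, and Cd79b and Cd8a did not after normexp correction.

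Of 25 collecting duct markers 13 fell (52.0%, against 9.67% of all members) and none rose: Slc4a1 (the anion exchanger of type A intercalated cells, and of red cells) by 1.46, Hsd11b2, which guards the mineralocorticoid receptor from cortisol, from 0.14 on both WT arrays to -0.95 and -0.91 (difference -1.07, SE 0.18, adjusted p = 0.0135), Atp6v1b1 (a proton pump subunit) by 0.95, Rhbg (an ammonia transporter) by 0.95, and the sodium channel subunits Scnn1b by 0.85 and Scnn1a by 0.73. Aqp2, the vasopressin-regulated water channel of principal cells, stood against this direction at 3.60 and 4.06 in WT and 4.78 and 5.35 in KD and did not pass (adjusted p = 0.109). Of 21 markers of the loop and distal tubule, 6 fell (28.6%, against 9.67% of all members) and none rose. Slc8a1 (a sodium-calcium exchanger) fell from 0.96 and 1.09 to -0.35 and -0.28 (difference -1.34, SE 0.13, adjusted p = 0.00454), Slc12a3 (the thiazide-sensitive cotransporter) by 0.81, Calb1 by 0.80 and Pvalb by 1.24, while Umod differed by -0.25 and did not pass. Of 38 proximal tubule markers 1 passed, Cyp7b1, an oxysterol hydroxylase, from 4.91 and 4.85 to 5.91 and 6.05; the phosphate cotransporter Slc34a1 read 6.99 and 7.02 in WT and 7.15 and 7.02 in KD. None of the collecting duct falls passed without either WT array, and 7 and 8 did without KD array 1 and KD array 2; of the loop and distal falls 1 and 0 passed without WT array 1 and WT array 2, and 4 without KD array 1.

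Of 15 podocyte markers 1 rose, Nphs1 (nephrin) by 0.45, and 3 fell: Synpo by its bright probe, Clic3 by 1.20 and the transcription factor Tcf21 by 0.56. Of 20 endothelial markers none passed limma's test, although 8 had an unadjusted p under 0.05, 3 passed as lower without either WT IRI array, and Aplnr differed most at -1.31. Of 23 matrix and stromal genes 2 rose (8.7%, against 6.16% of all members) and 3 fell (13.0%, against 9.67%). Ren1 (renin of juxtaglomerular cells) rose from 2.10 and 2.39 to 3.48 and 4.01 (difference 1.50, SE 0.18, adjusted p = 0.0068) and Acta2 by 0.68. The falls were Tagln by its brighter probe, Col1a1 (-0.78) and Col15a1 (-0.59). The podocyte falls became 1 without WT array 1 or KD array 2 and 0 without WT array 2, and the Nphs1 rise did not pass without either WT array, either KD array or either WT IRI array. The matrix and stromal rises became 0 without either WT array and 1 without either KD array, and the falls 1 without WT array 1 or KD array 2, 0 without WT array 2 and 2 without KD array 1. Among the other genes of hormone axes, Vdr, the vitamin D receptor, fell by 0.70 and Klk1, a tissue kallikrein, by 0.58, and Cyp24a1, which degrades active vitamin D, read 2.96 and 3.33 in WT and 0.97 and 2.10 in KD and did not pass (adjusted p = 0.0512). Of 24 cell cycle genes 4 fell (16.7%, against 9.67% of all members) and none rose. Mki67 fell from -1.22 and -0.90 to -2.28 and -2.58, Mcm2 by 0.60, Top2a at least 2.77-fold and Bub1b at least 2.10-fold. For Top2a and Bub1b no KD array was well above background. After normexp correction their differences were -0.12 and 0.12, so these 2 bounds hold for the main processing only. The median difference of the cell cycle list was only -0.25 after that correction. The list's median was -0.61, and the 4 cell cycle falls became 1 without WT array 1, KD array 1 or KD array 2, 0 without WT array 2, 2 without either KD IRI array and 11 without either WT IRI array.

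Of 24 genes of mitochondrial fatty acid oxidation 1 fell, Acaa2 (a thiolase) by 0.61, with a median of -0.22 and 18 lower on both slides; 6 fell without either WT IRI array. Of 26 peroxisomal genes and PPARA targets 3 fell (11.5%, against 9.67% of all members), a count that was 0 without either WT array, 1 without KD array 2, 5 without KD array 1, 2 without either KD IRI array and 6 after normexp. Among them were Acot1 from 4.46 and 4.56 to 3.69 and 3.50 (difference -0.91, SE 0.17, adjusted p = 0.0192) and Cyp4a10, a fatty acid hydroxylase, by 0.82, while Cyp4a14 read 1.76 and 1.85 in WT and 0.69 and -0.46 in KD. Of 30 genes of the TCA cycle and oxidative phosphorylation 1 passed, Idh3a (0.32), and after normexp correction or with the replicate block 0 rose. Hk2 (hexokinase 2) rose from -3.33 and -4.06 to -2.26 and -1.57 (difference 1.78, SE 0.29, adjusted p = 0.0132) and the glucose transporter Slc2a1 by 0.59, while Fbp2 and Pck2, of gluconeogenesis, fell by 0.71 and 0.59. Acacb, an acetyl-CoA carboxylase of mitochondria, fell by 1.11. Pdk1, which restrains pyruvate oxidation, fell from 1.28 and 1.31 to 0.30 and 0.17 (difference -1.07, SE 0.10, adjusted p = 0.00394). It was the 1 fall among 19 hypoxia targets, of which 5 rose (26.3%, against 6.16% of all members), among them Adm (0.94) and P4ha1 (1.06). Of 14 metallothionein and zinc genes 2 rose (14.3%, against 6.16% of all members) and none fell, and 1 rose after quantile normalization. Mt2, a metallothionein, rose by 1.32 and the zinc importer Slc39a4 by 1.75.

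Of 74 cytosolic ribosomal protein genes none passed limma's test, with 8 at an unadjusted p under 0.05 and a median of -0.05, while after quantile normalization 1 rose and 3 fell. Of 78 mitochondrial ribosomal protein genes 1 rose and 1 fell. Of 47 proteasome genes 3 rose (6.38%, against 6.16% of all members) and 4 fell (8.51%, against 9.67%). The falls were Psmb9, Psmb8, Psmb10 and Psme1, and the rises Psmd5 (0.66), Psmd11 (0.49) and Psme4 (0.35). Of 52 cytochrome P450 genes 6 rose (11.5%, against 6.16% of all members) and 7 fell (13.5%, against 9.67%). These counts were 3 and 1 without WT array 1, 0 and 0 without WT array 2, 4 and 4 without KD array 2, 6 and 4 without either KD IRI array and 7 and 12 without either WT IRI array. Among the rises were Cyp2a22 from 0.82 on both WT arrays to 3.35 and 3.48 (difference 2.60, SE 0.29, adjusted p = 0.00581) and Cyp4a12a, a hydroxylase of the male kidney, from 3.59 and 3.64 to 5.44 and 5.77 (difference 1.99, SE 0.28, adjusted p = 0.00869). The Cyp2b genes had larger differences and did not pass: Cyp2b10 read -4.42 and -6.08 in WT and -2.75 and 0.58 in KD, Cyp2b9 -2.77 and -4.12 against -1.17 and 2.13, and Cyp2b13 -3.86 and -5.56 against -2.38 and 1.11. Their arrays spread widely in both groups and their sequences are near-identical, so their probes may share signal.

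The same knockdown was also measured in the injured kidney, with other arrays. The difference between the effects was tested as an interaction, and it passed for 1264 members (6.61%), 790 of them among the 3029 called without injury (26.1%). Hmox1 rose by 4.19 without injury and by 0.93 with it, and the effects differed by 3.26 (adjusted p = 0.00559). Gclc rose by 2.00 and 0.93, and its effects differed by 1.07 (adjusted p = 0.0193). Angptl7 rose by 5.40 without injury, against a difference of -1.19 with it that did not pass, and Rec8 fell by 2.57 without injury, against a difference of 0.10 with it that did not pass. The effect was larger with injury for Gsta4 and Gpx2: Gsta4 rose by 1.27 without injury and by 2.41 with it (adjusted p of the difference 0.0158), and Gpx2 by 1.91 and 3.82 (adjusted p of the difference 0.0336). For Keap1 the differences were -1.27 and -1.40, and their difference of 0.12 did not pass (adjusted p = 0.689). Cbr3 (3.53 and 3.12), Gstm3 (1.48 and 1.39) and Abcc4 (1.71 and 1.47) also had effects whose difference did not pass, which does not show that they are equal. Of 166 named genes called without injury, 56 had a different effect with it, a count that was 1 without WT array 1, 2 without WT array 2, 27 without KD array 2, 14 without KD IRI array 1 and 1 without KD IRI array 2.

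**Figure D5:**
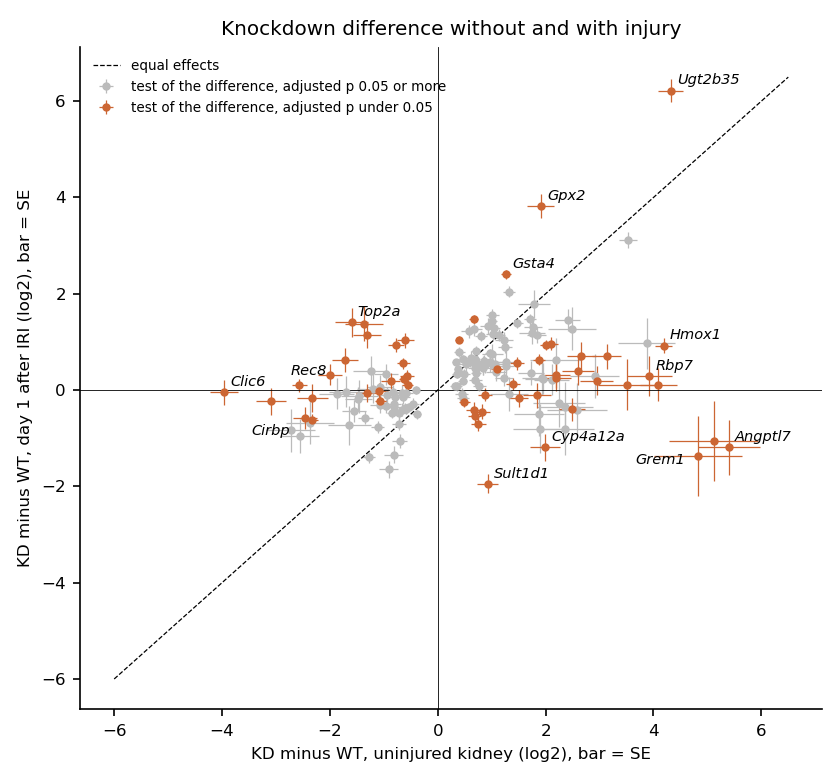
Knockdown difference in uninjured kidney (horizontal, log2) against that at day 1 after IRI (vertical, log2) for the genes named here that passed the test without injury; bars are the SE of the fit, the dashed line marks equal effects, and orange marks an adjusted p under 0.05 for the difference of the effects. Ugt2b35 and Gpx2 lie above the line, while Hmox1, Angptl7 and Rbp7 lie far below it.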

How the data were processed

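Single-colour Agilent arrays of 8 kidney samples were read, and 4 of them make the comparison. Per the file headers, the deposited processed intensity values came from Feature Extraction 10.7.3.1, which subtracts background; no normalization between arrays is recorded. The authors' deposited log2 table served as an alternative; its columns followed the scanner values with no stated centring, and their medians ran from -0.14 to 0.16. The flags for outlier spots and background are the other deposited values.

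Levels are log2 intensity minus the array's 75th percentile. Control and outlier spots were left out, spots of a probe were averaged, and each gene took its brightest kept probe. A linear model over all 8 arrays was fitted with limma 3.58.1 (R 4.3.3) with an intensity trend, contrasting KD normal with WT normal. P-values were Benjamini-Hochberg adjusted over 20580 genes at a threshold of 0.05, and the interaction with injury was tested in the same fit. The code was tested on simulated data. Where no array of a group was well above background, a fold is a lower bound against the lowest signal well above background or the probe's own, whichever is higher, on each array. Precision is limited by having 2 arrays per group.

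Replicate numbers equal the slides. Deviations of arrays with the same number correlated with r from 0.022 to 0.262, not all above 0.1, so the numbers were not taken as pairs. Alternatives were quantile normalization, normexp on the median signals, the deposited table, filters, the trend, array weights, the 4 arrays alone, the replicate block, probe averages, adjustment over members, a 2-fold minimum and leaving out each array. Members only well above background in both groups was an alternative chosen after seeing the data.

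The members and the 45 gene lists were chosen with earlier results of these data known. Genes named are a fixed set of NRF2 system and injury genes, the 20 largest rises and falls, the extremes of each list and the called neighbours of Keap1, not all of which are printed. Akr1c19, Aldh1l1, Atg4d, Cat, Cd74, Cebpd, Clock, Cul3, Cyp2b9, Egr1, Fth1, Ftl1, Gsr, Gsta3, Gstm1, Gstm2, Gstp1, Hspa5, Hspa8, Htatip2, Jun, Klf9, Krt18, Lrp2, Me1, Mgst1, Mgst2, Pde4a, Per1, Plaur, Prdx1, Prdx6, Scnn1a, Scnn1b, Slc34a1, Taldo1, Tkt, Tnfrsf12a, Txn1 and Umod fall outside that rule and were chosen after their values were seen. Some genes are not reported here.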

Additional observations from a re-analysis of the deposited data

Results flagged for a closer look

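The knockdown effect in uninjured kidney differed from that in injured kidney, by limma's interaction test with Benjamini-Hochberg adjustment over all genes fitted, for 56 of the 166 named genes called in uninjured kidney. Each value in parentheses is the uninjured effect minus the injured effect on the log2 scale, with 2 arrays in each of the 4 groups.

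In 10 of these genes the injured effect passed the test in the same direction: Akr1c19 (-0.81), Gclc (1.07), Gdf15 (1.13), Gpx2 (-1.91), Gsta4 (-1.14), Gstm2 (-0.65), Hmox1 (3.26), Lrrc66 (-1.71), Tnfrsf12a (1.25) and Ugt2b35 (-1.90). In 5 of them, Akr1c19, Gpx2, Gsta4, Gstm2 and Ugt2b35, it was larger with injury. In 8 genes the injured effect passed in the opposite direction: Bub1b (-2.44), Col1a1 (-1.71), Mcm2 (-1.63), Msrb1 (1.46), Rora (1.22), Sult1d1 (2.87), Top2a (-3.01) and Txnrd3 (-1.19).

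In 38 genes the injured effect did not pass the test. Those that rose in uninjured kidney were Acta2 (1.09), Aldh1a7 (1.93), Alkal2 (6.17), Angptl7 (6.59), Arntl (1.95), Creld2 (0.91), Cyp2a22 (2.19), Cyp4a12a (3.18), Cyp7b1 (0.68), Egr2 (2.43), Gp1ba (3.39), Grem1 (6.20), Hspa4l (1.28), Hspb1 (1.87), Idh1 (0.96), Krt19 (1.95), Lap3 (0.74), Ncoa4 (1.26), Nfil3 (2.89), Rbp7 (3.63), Ren1 (1.67), Sh2d1a (3.97) and Zfp982 (2.75). Those that fell in uninjured kidney were Aif1 (-2.34), Aldh1b1 (-1.06), Cirbp (-1.87), Clic6 (-3.92), Cryga (-2.17), Crygc (-2.86), Gpx7 (-0.86), Gsto2 (-1.08), H2-Oa (-2.32), Mki67 (-2.75), Pdk1 (-0.84), Psmb10 (-0.84), Psmb9 (-1.26), Rec8 (-2.67) and Tcf21 (-0.66). In Alkal2, Gp1ba, Grem1, Sh2d1a and Ugt2b35 no WT normal array, and in Bub1b, Clic6, Crygc and Top2a no KD normal array, was well above background. The sizes given for these genes rest in part on signal at background and are not measured values, and under normexp the uninjured difference was 0.12 for Bub1b and -0.12 for Top2a. What the differences come from was not tested.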

How the results depend on the processing

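Against 3029 calls (1179 higher, 1850 lower), there were 1445 after normexp correction (633 and 812), 1140 of them among the 3029. With no filter on dim probes there were 1855 (706 and 1149), 1838 of them shared, and with a 2-fold minimum 817 (307 and 510). Leaving out 1 array gave 114 to 3780 calls, 50 to 1559 higher and 64 to 2221 lower. The 10 calls next to Keap1 became 6 after quantile normalization, 3 after normexp, 4 with no filter, 0 with the 2-fold minimum and 0 to 13 with 1 array left out. The 56 named genes whose effect differed with injury became 25 in the deposited log2 table, 26 with no filter, 33 with no intensity trend and 1 to 70 with 1 array left out. With the replicate block, which is also the slide, 3611 genes were called (1438 higher, 2173 lower), 12 next to Keap1, and 68 named genes differed with injury. Keap1 stayed lower and past the threshold under every alternative run, at -1.33 to -1.22 with 1 array left out.

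Of the other 165 named genes called, 57 kept the call in all 12 alternatives other than leaving out 1 array and 28 in all 8 that leave out 1. The calls lost were 117 without WT array 1, 136 without WT array 2, 40 without KD array 1, 68 without KD array 2, 29 without either KD IRI array, 45 after normexp, 43 with no filter and 72 with the 2-fold minimum. Bub1b, dim in KD, turned to 0.12 after normexp (adjusted p = 0.939); the cause was not tested. Signal near background limits what can be said of the 727 and 372 members measured in 1 group only.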
